A study of Mus musculus with 4 samples.

Results

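The 6 genes of the corticotropin-releasing hormone (CRH) system described here are Crh, Ucn, Ucn3, Crhbp, Crhr1 and Crhr2. They were taken by symbol from the 22756 gene symbols kept from the deposited tables, and each had 1 entry. CRH and the urocortins are related peptides that act through a pair of receptors of the secretin family, which couple mainly to Gs, raise cyclic AMP and activate protein kinase A. CRH prefers the type 1 receptor, urocortin binds both, and urocortin 3 is selective for the type 2 receptor. A secreted binding protein, the product of Crhbp, holds CRH and urocortin away from the receptors. In the amygdala the system is known for its part in fear, anxiety and the response to stress, and Crh is a peptide gene of neurons in the central nucleus.

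The tissue was amygdala, taken from NpyCre/+;TRAPlox/lox mice, and 4 libraries were measured. The 2 input libraries hold the total RNA of the tissue, and the 2 immunoprecipitated (IP) libraries hold the RNA that was recovered by translating ribosome affinity purification (TRAP), a method that pulls down tagged ribosomes from cells in which Cre has acted. Cre was expressed from Npy, which encodes neuropeptide Y, so all 4 libraries come from mice of 1 genotype that carry the Cre and lox alleles, and a cell in which Cre acted at any earlier time may be tagged whether or not it still expressed Npy. Each library pooled 3 mice, and ages and treatments are not given in the sources used here. A precipitation from Cre-negative tissue was not analysed here, and carry-over of untagged RNA was therefore not measured.

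Values are FPKM, fragments per kilobase of transcript and scaled to the mapped total, which allow levels to be compared between genes. The files give no read totals, and the depth is therefore unknown beyond the confidence limits listed with each FPKM. Of 12417 genes tested, 70.9% passed an adjusted p of 0.05 (limma, Benjamini-Hochberg), and in 86.4% both IP values lay on the same side of both input values. A call in a single gene therefore says little by itself, and sizes are given throughout. Npy was 11.8-fold and Sst, the somatostatin gene, 13.5-fold higher in IP than in input, while Rpl10a, the gene of a ribosomal protein, was 1.70-fold higher. All 10 markers of GABAergic neurons were higher in IP, with a summed level of 311 and 314 FPKM in the input libraries against 1275 and 1396 after precipitation. In IP, 7 of 10 glutamatergic, 8 of 9 astrocyte and 8 of 8 oligodendrocyte markers were lower. Of all genes tested, 37% were higher and 33.9% lower. All 8 tested microglial and 4 of 6 tested vascular markers reached the filter, an FPKM of 1 in 2 libraries, through input alone, so their counts are given from the fit without it, where 8 of 8 microglial and 8 of 8 vascular markers were lower and 28.9% of all genes were. The astrocyte marker Slc7a10 also reached the filter through input alone, and without the filter 8 of 9 astrocyte markers were lower. The part of these shifts in the values of the CRH system genes was not tested.

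Of the 6 genes, 5 entered the test and all 5 passed, 4 of them higher and 1 lower in IP. Of all genes tested 70.9% passed, made up of 37% higher and 33.9% lower. Crhr2 reached that filter through its IP values alone, and Ucn3 would not have reached it on its input values, so that the filter favours genes with such a difference and this count carries no weight. In the fit without the filter, where 53.6% of 18021 genes passed, both were also called (limma adjusted p = 0.00128 and 0.0228). Ucn did not reach the filter. In input the order of levels was Crhbp, then Crhr1, then Crh, with no overlap between neighbours, followed by Ucn3, Ucn and Crhr2, whose ranges overlapped. In IP the order was Crhbp, then Crhr1, then Crh and Ucn3, which overlapped, then Crhr2 and last Ucn. The lower IP value of Crhr1, 4.31, and the higher of Crh, 4.22, differed by less than the replicates of either gene. Crhbp made up 53.4% and 45.4% of the summed FPKM of the 6 genes in input replicates 1 and 2, against 87.4% and 90.1% in the IP libraries. Crhr1, the second gene of the system in both fractions, went from 30.6% and 28.8% of the sum to 4.08% and 2.91%. The sum itself was 23.0 and 22.8 FPKM in the input libraries and 127.7 and 148.3 in the IP libraries. The share of Crhr1 thus fell far more than its mean level, which was 1.43-fold lower in IP.

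**Figure D1:**
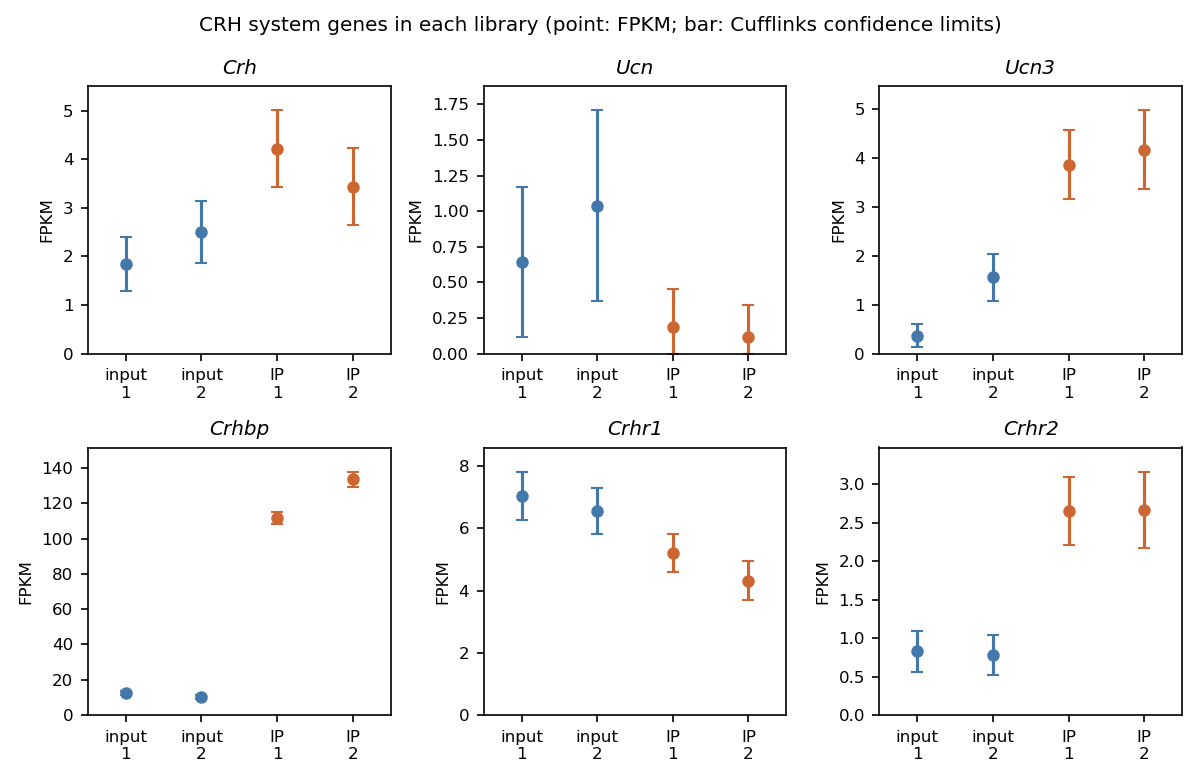
FPKM of each CRH system gene in the 2 input (blue) and 2 IP (orange) libraries, with the confidence limits that the authors' Cufflinks run gave as bars; each panel has its own linear axis from 0. Crhbp stands at 10.3 and 12.3 in the input libraries against 111.5 and 133.6 in the IP libraries, Crhr1 and Ucn are lower in IP, and the 2 input values of Ucn3 lie apart from each other.

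Among the peptide genes, Crh, which lies on chromosome 3 from 19693401 to 19695396 (mm10, minus strand, 2 exons), was measured at 1.84 and 2.50 FPKM in input replicates 1 and 2 and at 4.22 and 3.44 in IP replicates 1 and 2. Both IP values lay above both input values. The mean rose 1.76-fold, from 2.17 ± 0.47 to 3.83 ± 0.55 FPKM (SD, n = 2), a log2 change of 0.61 (SE 0.14, 95% interval 0.28 to 0.94) with an adjusted p of 0.00728 (limma). In IP replicate 1 Crh stood 2.30-fold above the input of the same number, and in IP replicate 2 1.37-fold above it. The confidence limits of input replicate 2, 1.85 to 3.15, overlapped those of IP replicate 2, 2.65 to 4.23, and the limits were apart in the other 3 pairs of an IP and an input library. Crh thus had a modest change beside that of Npy, and it ranked 1663 from the largest rise down among the 12417 genes tested. It no longer passed once input replicate 1 was left out (change 0.46, limma adjusted p = 0.0597), after rescaling each library to the same sum (0.43, adjusted p = 0.0557) and after a correction for transcript length (0.30, adjusted p = 0.119). In bulk RNA, fewer cells of a type and less RNA per cell cannot be told apart for this gene or the others.

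Ucn3, the gene of urocortin 3, on chromosome 13 from 3940688 to 3945349 (minus strand, 2 exons), was at 0.365 FPKM in input replicate 1 and 1.55 in input replicate 2, and at 3.85 and 4.16 in IP replicates 1 and 2. The IP values were close to each other and above both input values, while the input values differed 4.25-fold and their confidence limits, 0.13 to 0.60 and 1.08 to 2.02, did not overlap. The mean rose 4.18-fold, from 0.96 ± 0.84 to 4.01 ± 0.22 FPKM (SD, n = 2). This is a log2 change of 1.42 with an SE of 0.27 (limma, adjusted p = 0.00389). Because of the input values, the size of the rise depends on the pool: IP replicate 1 was 10.5-fold and IP replicate 2 2.68-fold above the input of the same number. If the listed limits span 2 SD of a read count, input replicate 1 stands for roughly 9.6 reads and input replicate 2 for 43.4. The 10.5-fold and 4.25-fold values thus rest on few reads. The log2 change was 0.97 without input replicate 1 and 1.87 without input replicate 2. These fits hold 1 input library and cannot measure the spread between the input pools, so a call in them says nothing about that spread. Markers of the medial amygdala and hypothalamus, regions that border the dissected tissue or lie within it, summed to 5.07 and 6.31 FPKM in input replicates 1 and 2, and to 2.14 and 3.41 in IP. Of these 12 markers, 7 were higher and 5 lower in input replicate 2 than in input replicate 1. Only 2 of the 12 were tested, Lhx9, which reached the filter through input alone and was 6.11-fold lower in IP, and Esr1, which did not pass. In the fit without the filter 1 was lower and 0 were higher. The other 10 were low in all libraries, with Hcrt and Pmch listed at 0 in both IP libraries and Hcrt also in input replicate 2, and with Kiss1 at 0.164 and 0.317 FPKM in the input libraries against 0 and 0.865 in the IP libraries. The part of the dissection in the Ucn3 values was not tested.

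Ucn, the gene of urocortin, on chromosome 5 from 31137989 to 31138895 (minus strand, 2 exons), was the least abundant of the 6 in IP. It was at 0.645 and 1.04 FPKM in input replicates 1 and 2 and at 0.189 and 0.113 in IP replicates 1 and 2, so that both IP values were below both input values. If the listed limits span 2 SD of a read count, the input values stand for roughly 6.0 and 9.6 reads, and the IP values for 2.0 and 1.0. The mean was 5.57-fold lower in IP, at 0.151 ± 0.053 against 0.841 ± 0.278 FPKM (SD, n = 2). In the fit without the filter, where 28.9% of genes were lower in IP, the log2 change was -0.67 (SE 0.12, limma, adjusted p = 0.0115). The limits were apart in only 1 of the 4 pairs of an IP and an input library, and the gene did not pass without input replicate 2 (limma adjusted p = 0.0505), without IP replicate 1 (0.0919), without IP replicate 2 (0.116) and with quantile normalization (0.0582). Its locus also holds the entry of the microRNA gene Mir6369, whose reads cannot be told apart from those of Ucn. With so few reads the depth does not allow a firm size. Ucn2, the gene of the third urocortin, was listed at 0 in all 4 libraries.

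Crhbp, on chromosome 13 from 95431376 to 95444831 (minus strand, 7 exons), carried by far the widest difference of the system. It stood at 12.3 and 10.3 FPKM in the input libraries, replicates 1 and 2, and at 111.5 and 133.6 in IP replicates 1 and 2. Every IP value was thus above every input value, with limits far apart in all 4 pairs. The mean rose 10.8-fold, from 11.3 ± 1.40 to 122.6 ± 15.6 FPKM (SD, n = 2), a log2 change of 3.32 (SE 0.11, 95% interval 3.06 to 3.59; limma, adjusted p = 1.42e-05). The rise over the input of the same number was 9.06-fold in replicate 1 and 12.9-fold in replicate 2. It ranked 12 from the largest rise down among the 12417 genes tested, behind Npy and Sst, and a rise of at least 1 on the log2 scale was called in 3.48% of genes. In level, Crhbp stood above 53.5% of the genes tested in input and above 94.9% in IP.

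Promoter sequence is shown for Crhbp, the gene with the widest difference, and for Ucn, the gene lowest in IP, each as the 250 bases before the transcript start (RefSeq, GRCm38.p6, which is mm10), 5′ to 3′ on the minus strand. The windows are chr13:95444832-95445081 for Crhbp and chr5:31138896-31139145 for Ucn. Capitals mark matches, on either strand, to the cyclic AMP response element TGACGTCA, which is bound by CREB, and to its half-site TGACG, which lies within it on both strands.
Crhbp promoter: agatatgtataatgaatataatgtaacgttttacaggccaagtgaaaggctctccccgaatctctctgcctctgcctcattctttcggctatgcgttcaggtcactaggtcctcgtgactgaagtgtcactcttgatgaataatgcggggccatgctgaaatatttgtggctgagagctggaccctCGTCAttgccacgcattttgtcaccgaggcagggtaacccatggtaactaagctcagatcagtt
Ucn promoter: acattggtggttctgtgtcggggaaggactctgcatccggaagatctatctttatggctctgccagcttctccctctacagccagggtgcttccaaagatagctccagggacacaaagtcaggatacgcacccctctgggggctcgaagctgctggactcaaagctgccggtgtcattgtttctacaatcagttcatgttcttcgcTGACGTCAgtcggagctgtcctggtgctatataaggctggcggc
The Ucn window holds a full element that begins 44 bases before the start, and the Crhbp window holds a half-site, on the opposite strand, that begins 64 bases before it. Of 32851 promoters of the same length, 1.55% hold the full element and 17.8% the half-site. The windows of Crhr1, Crhr2 and Ucn3 hold neither, which says only that these letters are not in them, and 5 of the 6 genes, all but Crh, were matched in the promoter table. A match is a description of the sequence and not a measured binding site.

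The receptor genes went in opposite directions. Crhr1, which encodes the type 1 receptor and lies on chromosome 11 from 104132882 to 104175518 (plus strand, 12 to 14 exons by transcript), was at 7.05 and 6.56 FPKM in input replicates 1 and 2 and at 5.21 and 4.31 in IP replicates 1 and 2. Both IP values were below both input values, although the limits of IP replicate 1 and input replicate 2 met, at 5.84 and 5.82. The mean fell from 6.80 ± 0.35 to 4.76 ± 0.64 FPKM (SD, n = 2), which is 1.43-fold lower in IP, a log2 change of -0.44 (SE 0.10, 95% interval -0.68 to -0.20; limma, adjusted p = 0.00778). It did not pass without input replicate 1 (-0.40, limma adjusted p = 0.0767) and with quantile normalization (-0.25, adjusted p = 0.054), and the change was -0.81 after rescaling (adjusted p = 0.000902). Rescaling moved the median change of all genes from 0.025 to -0.29, so that Crhr1 lay below that median in both.

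Crhr2, which encodes the type 2 receptor and lies on chromosome 6 from 55090049 to 55133016 (minus strand, 11 to 13 exons by transcript), was measured at 0.830 and 0.781 FPKM in input replicates 1 and 2 and at 2.65 and 2.67 in IP replicates 1 and 2. The replicates of each group lay close together, the groups did not overlap, and the limits were apart in all 4 pairs. The mean rose 3.30-fold, from 0.81 ± 0.03 to 2.66 ± 0.01 FPKM (SD, n = 2). The log2 change was 1.02 (SE 0.09, 95% interval 0.81 to 1.23) with an adjusted p of 0.000144 (limma). The rise was 3.19-fold in replicate 1 and 3.41-fold in replicate 2 over the input of the same number. The size on the log2 scale rests on the added constant, with 1.61 at a pseudocount of 0.1 and 0.40 at 5. The tables are at gene level, so the transcripts that start at different promoters of Crhr2 were not told apart. Crhr2 was below Crhr1 in every library.

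**Figure D2:**
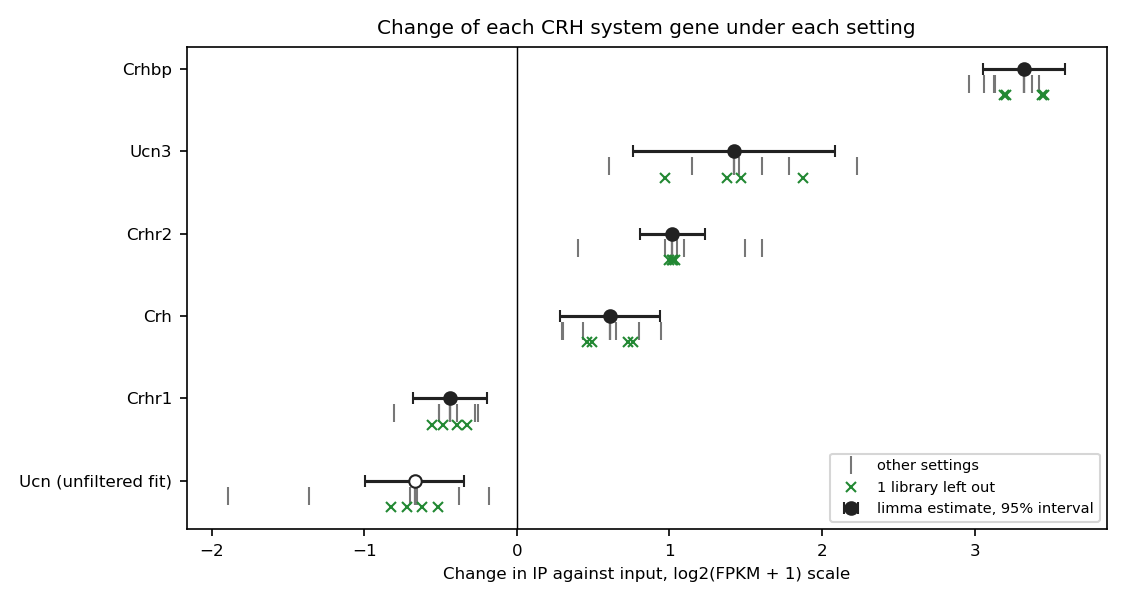
Change of each gene in IP against input on the log2(FPKM + 1) scale, with the limma estimate and its 95% interval (circle and bar, open for Ucn, which comes from the fit without a filter), the estimates under other settings (grey ticks, which include other pseudocounts) and those with 1 library left out (green crosses). Crhbp lies between 2.96 and 3.45 in all alternatives, Ucn3 between 0.60 and 2.23, and no gene changes sign.

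Ratios within a library do not depend on the scaling between libraries. Crhbp stood 6.70-fold and 4.13-fold above Crh in the input libraries and 26.4-fold and 38.9-fold above it in the IP libraries. The log2 ratio was 2.61 higher in IP, and the groups did not overlap. Crhr2 was 0.118 and 0.119 of Crhr1 in the input libraries and 0.508 and 0.618 of it in the IP libraries, a log2 ratio 2.24 higher in IP. For each ratio the exact permutation test, two-sided, gave p = 0.333, the smallest that 2 against 2 libraries allow, so these differences cannot pass a threshold in this design.

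**Figure D3:**
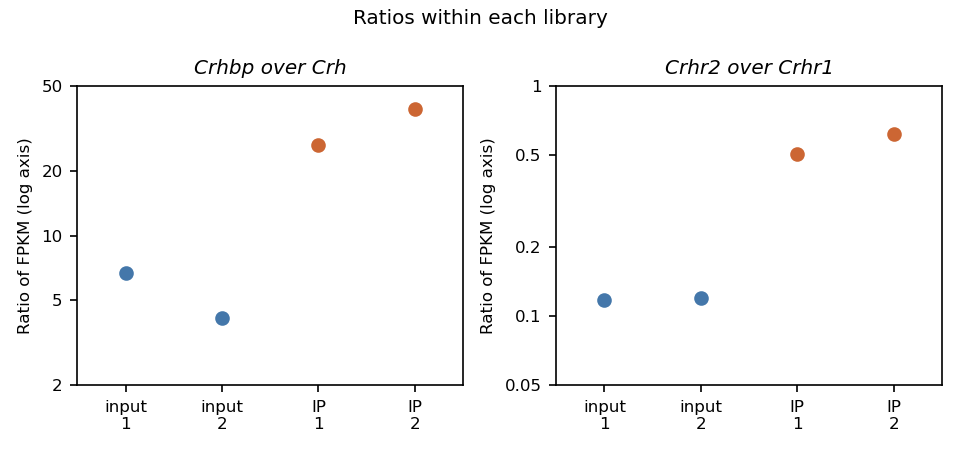
Ratio of FPKM of Crhbp to Crh (left) and of Crhr2 to Crhr1 (right) in each input (blue) and IP (orange) library, on log axes. Both ratios are higher in both IP libraries than in either input library, and the ratio of the receptor genes stays below 1 throughout.

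The genes nearest in level and change to each member were found by Euclidean distance of log2(FPKM + 1) over the 4 libraries. For Crhbp they were Lhx6, a transcription factor gene of interneurons (distance 0.44), the neuropeptide gene Cort (0.52), and Cox6a2, which encodes a subunit of cytochrome c oxidase (0.57), with log2 changes of 2.93, 3.65 and 3.27 (limma). For Crh they were Cidea (0.24), Kazald1 (0.26) and the neuregulin receptor gene Erbb4 (0.26). Crhr1 had Trpc1 (0.079), Cntn2 (0.099) and Plcxd3 (0.10) as its neighbours, and Crhr2 had the thrombin receptor gene F2r (0.093), Alk (0.20) and Ntn4 (0.20). The nearest to Ucn3 were more distant, Scx at 0.55, Epb4.1l4a at 0.60 and Baiap2l2 at 0.63. With 4 libraries many genes share such a profile, and the distances are descriptions.

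Components downstream of the receptors were called in both directions. Of 31 genes on this list 29 were tested, and 12 were higher, 11 lower and 6 not past the threshold in IP, so that 79.3% were called against 70.9% of all genes, with a median change of 0.073 against 0.025. The split rested on the scaling. After rescaling 4 were higher and 16 lower, where 17.9% of all genes were higher and 53.8% lower. Under quantile normalization the counts were 3 and 13, where 4380 of 12417 genes were higher and 3753 lower. With any 1 library left out fewer of the list were called, as were fewer of all genes. The median change was 0.051 without input replicate 1 and 0.099 without input replicate 2, against 0.026 and 0.022 for all genes. Gnas, which encodes the alpha subunit of Gs and whose locus holds overlapping transcripts, had 1159 and 1208 FPKM in the input libraries and 1978 and 1921 in the IP libraries, a log2 change of 0.72 (limma, adjusted p = 7.04e-05), a call lost with quantile normalization (0.13, adjusted p = 0.155). Grk6, which encodes a kinase of activated receptors, went from 24.0 and 23.5 to 41.1 and 41.1 FPKM. Of 6 tested receptor kinases and arrestins 4 were higher and 1 lower, and of 4 genes of the CREB family and its coactivators 1 was higher and 3 lower. After rescaling these counts were 1 and 2, and 0 and 3. Of 6 protein kinase A subunits 4 were higher and 0 lower, where 37% of all genes were higher and 33.9% lower. The counts were 2 and 2 after rescaling, and 0 and 1 under quantile normalization, beside the values over all genes given above.

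Of 7 tested adenylyl cyclases, which make cyclic AMP, 5 were lower and 1 higher in IP, where 33.9% of all genes were lower and 37% higher. The counts were 5 and 0 after rescaling, and 2 and 2 after the correction for transcript length. Fewer were lower with any 1 library left out, settings in which fewer of all genes were called lower too. Adcy6 had input values of 7.11 and 6.95 FPKM and IP values of 3.46 and 3.74, a log2 change of -0.80 (limma, adjusted p = 0.000222). Rapgef3, which encodes an exchange factor opened by cyclic AMP, was at 5.86 and 6.72 in input and at 2.51 and 3.78 in IP, a change of -0.83 that did not pass with input replicate 2 left out (limma adjusted p = 0.0558).

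**Figure D4:**
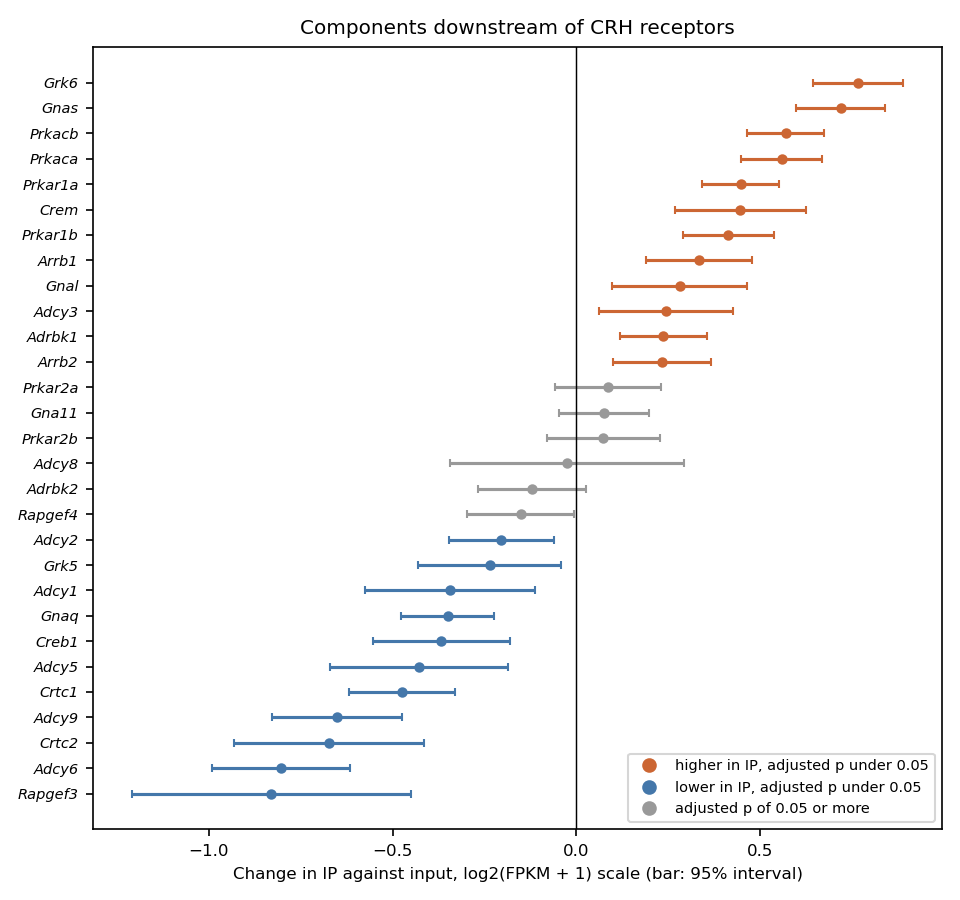
Change in IP against input, on the log2(FPKM + 1) scale, of the 29 tested components downstream of CRH receptors, with 95% intervals from limma; orange is higher, blue lower, and grey not past an adjusted p of 0.05. Grk6 and Gnas lie at the top and Adcy6 and Rapgef3 at the bottom, under the deposited scaling.

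Among the other 13 receptors of the secretin family, most were low in this tissue, and 4 were tested. Calcr, the calcitonin receptor gene, had input values of 0.397 and 0.438 FPKM and IP values of 1.77 and 2.38, a log2 change of 1.11 beside 1.02 for Crhr2. Like Crhr2 it reached the filter through IP alone, and without the filter its adjusted p was 0.00289 (limma). Vipr1, a receptor gene for vasoactive intestinal peptide, had 4.03 and 3.62 FPKM in the input libraries and 1.64 and 0.977 in the IP libraries (-1.08; adjusted p = 0.000988). The other 2 tested, Adcyap1r1, the receptor gene for the peptide PACAP, and Pth1r, did not pass (limma adjusted p = 0.0533 and 0.129), where 70.9% of all genes did.

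Of 15 other genes of the stress axis 10 were tested, with 4 higher, 4 lower and 2 not past the threshold. This is 80% called, near the 70.9% of all genes, of which 37% were higher and 33.9% lower. After rescaling 3 were higher and 5 lower, where all genes gave 17.9% and 53.8%. Fkbp4, which encodes a co-chaperone of steroid receptors, went from 53.7 and 57.3 FPKM in input to 112.5 and 118.4 in IP, and Oxtr, the oxytocin receptor gene, from 2.76 and 3.05 to 4.91 and 6.50 (log2 changes 1.04 and 0.77; limma, adjusted p = 3.68e-05 and 0.0021). Avp, the gene of vasopressin, which acts together with CRH on the pituitary, had 8.68 and 9.60 FPKM in the input libraries but 0.624 and 1.08 after precipitation. Nr3c2, the mineralocorticoid receptor gene, was at 9.78 and 10.8 in input and at 5.19 and 5.49 in IP.

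The list of 17 peptide and marker genes of amygdala neurons includes Npy, from which Cre was expressed, so that its rise follows from the design. Of the 17 genes 15 were tested, with 8 higher, Npy among them, 4 lower and 3 not past the threshold. This is 80% called against 70.9% of all genes, with a median change of 0.35 against 0.025. The median rested on the setting. With the correction for transcript length it was 0.072 against 0.046 for all genes, with 6 higher and 4 lower. Without the filter 6 of 17 were higher and 3 lower, with a median of 0.14 against -0.032, where 53.6% of all genes passed. After rescaling 6 were higher and 5 lower, where all genes gave 17.9% and 53.8%. Fewer were lower without input replicate 1, input replicate 2 or IP replicate 2, where fewer of all genes were called lower too. More were lower without IP replicate 1. Sst and Cort had the largest rises of this list, at log2 changes of 3.75 and 3.65, against 3.32 for Crhbp and 0.61 for Crh. Prkcd, which marks a class of central amygdala neurons, went from input values of 3.35 and 3.76 FPKM to IP values of 0.760 and 1.27, and Trh was at 5.13 and 4.42 in input and at 1.18 and 1.25 in IP. Crh thus lay between the peptide genes that were strongly higher in IP and those that were lower.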

How the data were processed

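RNA of the amygdala was sequenced in 2 IP and 2 input libraries, from 200 ng of RNA and as 100 bp single-end reads per the series' design text. The authors aligned reads with TopHat to mm10 and deposited Cufflinks gene-level FPKM with confidence limits, per the file headers and the submitters' processing notes. Versions and strand use in counting are not given in these sources.

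Groups and numbers come from the sample titles. The source description of IP replicate 2 gives another number, and the title was followed. The design text names a corresponding input for each IP, so equal numbers were taken as a pair of the same mice. The main fit did not use this pairing and treated the libraries as independent, and only the fit with a replicate block used it. The deviations of IP and input replicate 1 from their group means correlated at 0.161 across genes. Replicates held 0 identical values at FPKM of at least 5. The p-values measure only the spread between these pools. With 1 library left out, its group holds 1 library, and the spread of that group is not measured.

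Of 24490 entries, 8 with a failed status and 1276 with small RNA names were left out, and the entry with the highest mean was kept per symbol. The test took genes that reached an FPKM of 1 in 2 or more libraries, on log2(FPKM + 1), which understates changes of low genes, with lmFit and eBayes with trend in limma 3.58.1 (R 4.3.3), two-sided, with Benjamini-Hochberg adjustment over all genes tested. Fold values are ratios of mean FPKM. The script was tested on simulated data. Transcript lengths came from GENCODE for 99.4% of tested genes. The genes, lists and settings were chosen with earlier results of these data known. Named from each list were up to 2 genes with the largest rise and fall that passed with groups apart, and the 3 nearest genes of each tested member, without predicted genes.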

Additional observations from a re-analysis of the deposited data

How the results depend on the processing

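The call of Crhbp held in all 15 alternatives, with changes of 2.96 to 3.45. Crhr2 and Ucn3 passed in 14 each, with changes of 0.40 to 1.61 and 0.60 to 2.23, but all of these other than the fit without a filter keep the filter they reached with the help of IP. For all 6 genes, the alternatives with 1 library left out do not measure the spread of its group. Crh held in 11 of 14, with 0.43 after rescaling, 0.30 after the length correction and 0.46 without input replicate 1 not passing. Its range was 0.46 to 0.76 with 1 library left out. Crhr1 held in 13 of 15, with -0.25 under quantile normalization and -0.40 without input replicate 1 not passing, and -0.55 to -0.33 with 1 library left out. Ucn held in 9 of 13. It did not pass under quantile normalization (-0.38) or without input replicate 2, IP replicate 1 or IP replicate 2. Its changes were -0.82 to -0.52 with 1 library left out and -1.89 to -0.18 over all alternatives. Crh, Crhr2 and Ucn3 did not reach the filter at FPKM of 5. The replicate block, paired by number, called 9114 genes against 8802 and changed no call of the 6 genes. Calls among the secretin family receptors numbered 5 of 12 without a filter (53.6% of all genes), 4 of 4 with quantile normalization (65.5%) and 0 of 1 with the filter at 5 (73.7%; limma, unadjusted p under 0.05 in 1). Over all genes, calls were 4597 higher and 4205 lower, against 2228 and 6684 after rescaling. Ucn and the value of Ucn3 in input replicate 1 are limited by depth, and all p-values by 2 pools per group.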
